A study of Mus musculus with 9 samples.

Results

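Microglia are the resident macrophages of the brain, and P2ry12, Gpr34, Fcrls and Olfml3 are 4 genes that mark them in the resting, or homeostatic, state. The 4 genes were taken by symbol from a deposited table of 1710 genes, and all 4 passed the filter on low counts that left 1583 genes for testing. They were chosen by their measured levels over the 3 groups of the study, which put 3 of them lower and 1 higher at the high dose. Those same levels are therefore described below with no test for any of the 4.

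RNA was sequenced from wild-type mouse tissue labelled "brain ctx", 10 days after stereotaxic surgery. The sample titles give 3 groups of 3 libraries: PBS (phosphate-buffered saline), LowDose and HighDose. The title of the series says that the doses are of AAV, the adeno-associated virus, which is widely used as a carrier of genes into neurons. All 9 libraries share the genotype label WT, and the injection protocol is worded alike for every sample. Strain, age, the gene carried by the virus, its promoter and the amounts behind the dose labels are not given in the labels used here. Nothing says that replicates are different animals, so every error and p below measures only the spread between libraries, which may be technical. Library totals lay between 18.3 and 23.7 times 1e6, and the 4 genes were counted with 99 to 1488 counts per library.

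Resting microglia scan the tissue with fine processes. P2ry12, a receptor for ADP, steers these processes toward damaged cells, and its loss is widely used as a sign that microglia have left the resting state. Gpr34 is a related receptor for lysophosphatidylserine, a lipid released by damaged or dying cells. Fcrls is a scavenger-type relative of the Fc receptors, and Olfml3 is a secreted glycoprotein of the olfactomedin family. Transforming growth factor beta (TGF-beta), colony-stimulating factor 1 receptor signals and transcription factors such as PU.1 (gene Spi1) and Sall1 keep this gene programme on.

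In build mm10, as annotated by GENCODE M21, P2ry12 (ENSMUSG00000036353) lies on chromosome 3 at 59216272 to 59262871 and Fcrls (ENSMUSG00000015852, listed under the human-style symbol FCRL2 in the deposited table) on chromosome 3 at 87250758 to 87263738, both on the minus strand. Olfml3 (ENSMUSG00000027848) lies on chromosome 3 at 103722222 to 103738001, minus strand. Gpr34 (ENSMUSG00000040229) lies on chromosome X at 13632089 to 13640858, plus strand. P2ry12 sits inside Med12l, which runs on the other strand and shares 9 of its 2546 exon bases, and Gpr34 sits inside Cask, also on the other strand, with 0 of 2090 exon bases shared. Use of strand in the counting is not stated in the labels. Reads of unspliced host RNA over the exons of P2ry12 and Gpr34 can therefore not be told apart from reads of these genes. Spliced host reads could be confused with theirs only at the 9 shared bases of P2ry12. Neither Fcrls nor Olfml3 overlaps another annotated gene. Counts of the 4 genes were whole numbers in all 9 libraries.

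Since 3 of the 4 genes were lower together and the fourth was higher, the sequence before their start sites is shown, for the 250 bases upstream of the RefSeq start in build GRCm38.p6, on the minus strand, 5′ to 3′. Capitals mark matches, on either strand, to GAGGAA (the core bound by PU.1), CAGAC (bound by the SMAD proteins of the TGF-beta pathway) and TATAAA (the TATA box). P2ry12 is shown at chr3:59262986-59263235, Fcrls at chr3:87263525-87263774 and Olfml3 at chr3:103738002-103738251. The RefSeq table used here held 3 of the 4 genes, and Gpr34 was not analysed here.
P2ry12: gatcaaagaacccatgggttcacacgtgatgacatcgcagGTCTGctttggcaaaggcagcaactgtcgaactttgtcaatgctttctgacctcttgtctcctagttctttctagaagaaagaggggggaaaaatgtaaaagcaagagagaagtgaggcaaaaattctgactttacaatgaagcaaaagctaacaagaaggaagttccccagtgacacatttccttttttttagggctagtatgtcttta
Fcrls: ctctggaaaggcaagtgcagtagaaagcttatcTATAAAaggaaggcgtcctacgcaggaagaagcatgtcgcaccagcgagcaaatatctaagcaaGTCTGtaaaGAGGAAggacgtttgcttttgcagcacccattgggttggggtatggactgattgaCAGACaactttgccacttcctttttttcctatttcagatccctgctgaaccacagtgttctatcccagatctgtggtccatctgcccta
Olfml3: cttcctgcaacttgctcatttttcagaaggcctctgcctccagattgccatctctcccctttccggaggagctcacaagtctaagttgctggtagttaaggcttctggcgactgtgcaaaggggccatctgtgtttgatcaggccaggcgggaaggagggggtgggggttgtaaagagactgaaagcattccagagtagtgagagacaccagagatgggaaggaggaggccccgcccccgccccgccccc
The Fcrls window held GAGGAA 144 bases before the start, CAGAC on either strand 153 and 89 bases before it, and TATAAA 217 bases before it. The P2ry12 window held a reverse-strand CAGAC 210 bases before the start, and the Olfml3 window held none of these motifs. The RefSeq start of Fcrls lies inside the GENCODE locus, so the part of its window up to 87263738, with the GAGGAA and both CAGAC matches, is inside the gene as GENCODE annotates it. The RefSeq start of P2ry12 lies just outside its GENCODE locus. The element of interferon-regulated genes, GAAA followed by any 2 bases and GAAA, was searched on both strands too and was absent from the 3 windows. Among 32817 RefSeq windows of the same length, 23.3% held GAGGAA, 42.2% CAGAC, 12.4% TATAAA and 2.97% the interferon element. The matches in the 3 windows did not overlap each other. A match describes letters only.

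P2ry12 was at 39.6, 41.5 and 33.6 CPM (counts scaled to a library total of 1e6) in PBS replicates 1 to 3. It was at 37.3, 29.5 and 24.8 CPM in LowDose and at 22.2, 19.9 and 16.3 CPM in HighDose. Every HighDose library lay below every PBS and LowDose library, while LowDose replicate 1 lay among the PBS libraries. The mean went from 38.3 ± 4.14 CPM (SD, n = 3) in PBS to 19.5 ± 2.99 CPM in HighDose, 1.97-fold lower, with a log2 change of -0.97 ± 0.22 (SE). The LowDose mean of 30.6 ± 6.29 CPM lay between them, with a log2 change of -0.32 ± 0.22 against PBS. No label pairs the libraries. Deviations from group means correlated weakly between same-numbered PBS and LowDose libraries (r = 0.25, 0.17 and 0.14). With the numbers taken as pairs on that ground, P2ry12 was lower in LowDose in 3 of 3 pairs, with a log2 change of -0.34 when the number was a block. Pair counts here and below only describe members chosen by these values, and the share over all tested genes is not given.

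Gpr34 was the least counted of the 4, at 11.01, 14.2 and 11.2 CPM in PBS. It was at 12.5, 10.5 and 9.78 CPM in LowDose and at 7.26, 4.74 and 5.33 CPM in HighDose. As with P2ry12, the HighDose libraries were all below the other groups, and the LowDose and PBS libraries overlapped. Its mean was 12.1 ± 1.79 CPM in PBS and 5.78 ± 1.32 CPM in HighDose (SD, n = 3 each), 2.10-fold lower, and its log2 change was -1.07 ± 0.25 (SE). In LowDose the log2 change against PBS was -0.15 ± 0.24, and Gpr34 was lower in 2 of 3 pairs.

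Fcrls was the furthest below PBS of the 3 lower genes. It was at 31.7, 37.8 and 30.3 CPM in PBS, at 24.5, 29.5 and 30.7 CPM in LowDose, and at 16.4, 8.28 and 13.6 CPM in HighDose. HighDose replicate 2 had the lowest Fcrls and the lowest Gpr34 of all libraries, but not the lowest P2ry12, which was in replicate 3. The mean went from 33.3 ± 4.0 to 12.7 ± 4.11 CPM (SD, n = 3 each), 2.61-fold lower, with a log2 change of -1.38 ± 0.23 (SE). The LowDose value was -0.24 ± 0.23, with Fcrls lower in 2 of 3 pairs.

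Olfml3 stood on the other side. It was at 20.7, 27.6 and 20.1 CPM in PBS and at 48.7, 57.9 and 64.5 CPM in HighDose, so that the lowest HighDose library lay well above the highest PBS library. Its mean went from 22.8 ± 4.21 to 57.0 ± 7.95 CPM (SD, n = 3 each), 2.50-fold higher, with a log2 change of 1.32 ± 0.22 (SE). In LowDose it was at 20.1, 19.3 and 19.1 CPM, a log2 change of -0.23 ± 0.22 against PBS. These libraries lay just under the lowest PBS library, so any pairing would put it lower in 3 of 3 pairs. Within HighDose, Olfml3 was highest and P2ry12 lowest in replicate 3, and the reverse held in replicate 1. In HighDose against PBS, Olfml3 is the member whose direction depended on the scaling. With library sizes taken from within the listed genes its log2 change was -0.37 (TMM), -0.35 (DESeq2 size factors) and -0.34 (sum of listed counts). The listed genes held 1.54 to 1.61% of the library total in PBS and 3.90 to 6.04% in HighDose. Those 3 scalings take out this shared rise, so library totals are the main scaling here.

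**Figure D1:**
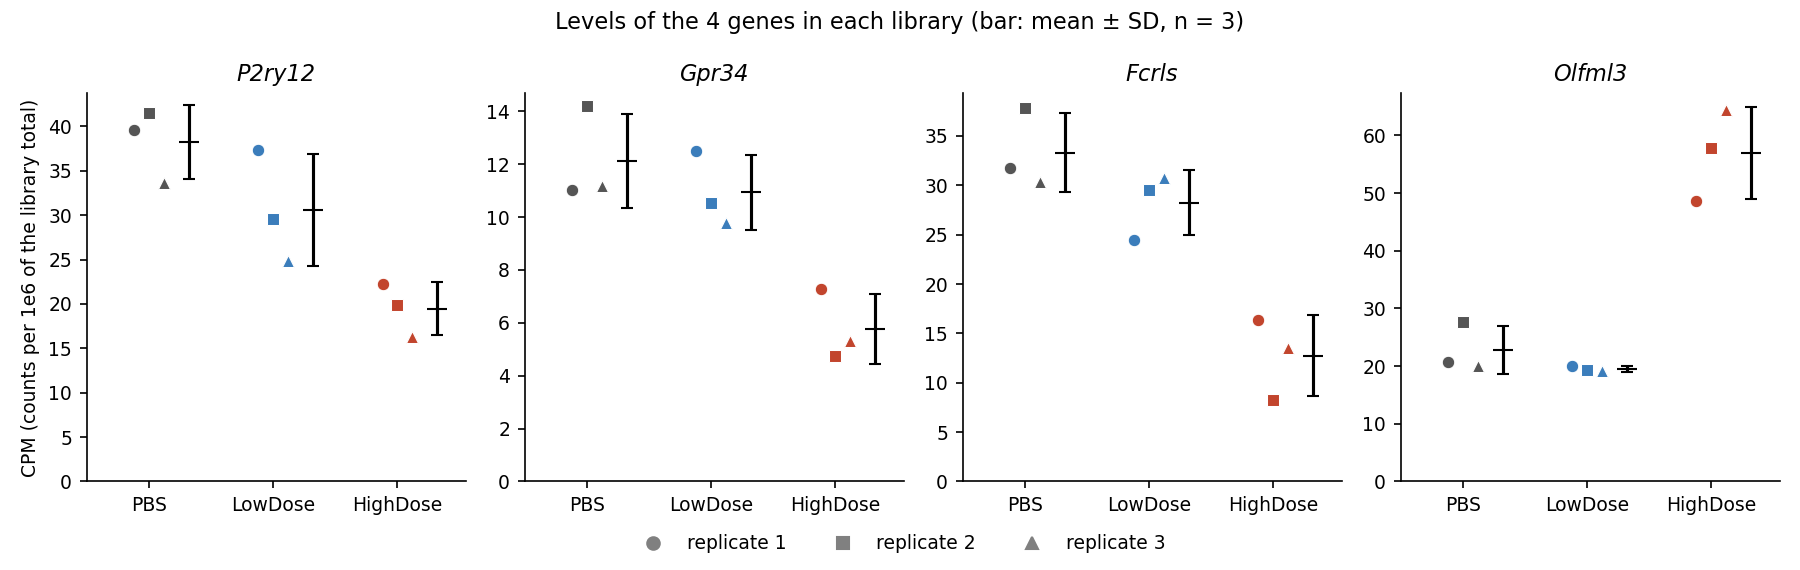
Level of P2ry12, Gpr34, Fcrls and Olfml3 (vertical axes, CPM, counts per 1e6 of the library total) in each PBS, LowDose and HighDose library (points, shaped by replicate number), with the group mean ± SD (n = 3). The HighDose libraries lie at 16.3 to 22.2 CPM for P2ry12, below all others, and at 48.7 to 64.5 CPM for Olfml3, above all others.

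Of the 1583 tested genes, 86.3% were called higher and 10.7% lower (97% in either direction) in HighDose against PBS (edgeR quasi-likelihood test, adjusted p threshold 0.05), and in 10.3% every HighDose library lay below every PBS library, as was so for 3 of the 4 members, and in 85.8% above, as for Olfml3. In HighDose against LowDose, 7.08% were called lower and 88.1% higher (95.1% in either direction), while 6.32% lay below and 86.5% above without overlap. In LowDose against PBS, 2.15% were called lower and 0.442% higher, while 13.1% lay below without overlap, as Olfml3 did, and 6.57% above. Both comparisons against PBS use the same PBS libraries. The members were chosen for these contrasts, so nothing is read from their counts against these shares. The log2 changes of the members in HighDose against LowDose were -0.65 ± 0.22 for P2ry12, -0.92 ± 0.25 for Gpr34, -1.15 ± 0.23 for Fcrls and 1.55 ± 0.22 for Olfml3 (SE).

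The table lists only genes whose mean FPKM (counts per kilobase of transcript and per 1e6 of the library total) differed at least 2-fold between some pair of groups. The largest such ratio was 2.09 for Gpr34, 2.39 for P2ry12, 2.63 for Fcrls and 2.92 for Olfml3, so Gpr34 lay just inside this limit. Every tested gene was listed by this same rule, so a call in HighDose against PBS was close to fixed beforehand (97% were called). The adjusted p-values of other genes below are therefore descriptions and no independent evidence of a difference. Other well-known homeostatic genes, such as Cx3cr1 and Sall1, were not analysed here.

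Per length, the order of the 4 genes changed with the high dose. In PBS the FPKM level was 24.6 ± 2.41 for P2ry12, 17.5 ± 0.728 for Fcrls, 6.28 ± 0.870 for Gpr34 and 4.17 ± 0.770 for Olfml3 (SD, n = 3 each), and neighbours in this order did not overlap between libraries. In LowDose P2ry12 (14.6 to 23.0 FPKM) and Fcrls (10.8 to 15.8 FPKM) overlapped. In HighDose Olfml3 stood at 8.90, 10.6 and 11.8 FPKM and P2ry12 at 11.7, 10.8 and 8.40 FPKM, so the top 2 genes could not be ordered beyond their spread. Fcrls (4.98 to 8.29 FPKM) and Gpr34 (2.50 to 3.79 FPKM) stood below Olfml3 in every HighDose library. The summed FPKM of P2ry12, Gpr34 and Fcrls was 44.6 to 52.2 in PBS, 35.5 to 40.3 in LowDose and 17.8 to 23.8 in HighDose.

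P2ry12 differed more per length than per count between HighDose and PBS (2.39-fold lower in FPKM, 1.97-fold in CPM). Dividing a gene's count by its FPKM and by the library total gives the transcript length that the authors' FPKM used in that library. For P2ry12 this length was 1571, 1561 and 1533 bases in PBS, 1623, 1675 and 1697 bases in LowDose, and 1900, 1839 and 1939 bases in HighDose, with no overlap between any pair of groups. GENCODE M21 annotates 5 P2ry12 transcripts, 4 of 2101 to 2344 bases and a short one of 619 bases, and the values lie between these lengths. For Olfml3 the length was 5461 to 5467 bases in all 9 libraries, next to its longest transcript of 5465 bases, and for Gpr34 it was 1894 to 1952 bases with the 3 groups overlapping. For Fcrls, with transcripts of 2273 and 690 bases, it ranged from 1662 to 2263 bases and the groups overlapped. Levels per transcript were not analysed here, and the part of transcript choice in the length of P2ry12 was not tested.

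**Figure D2:**
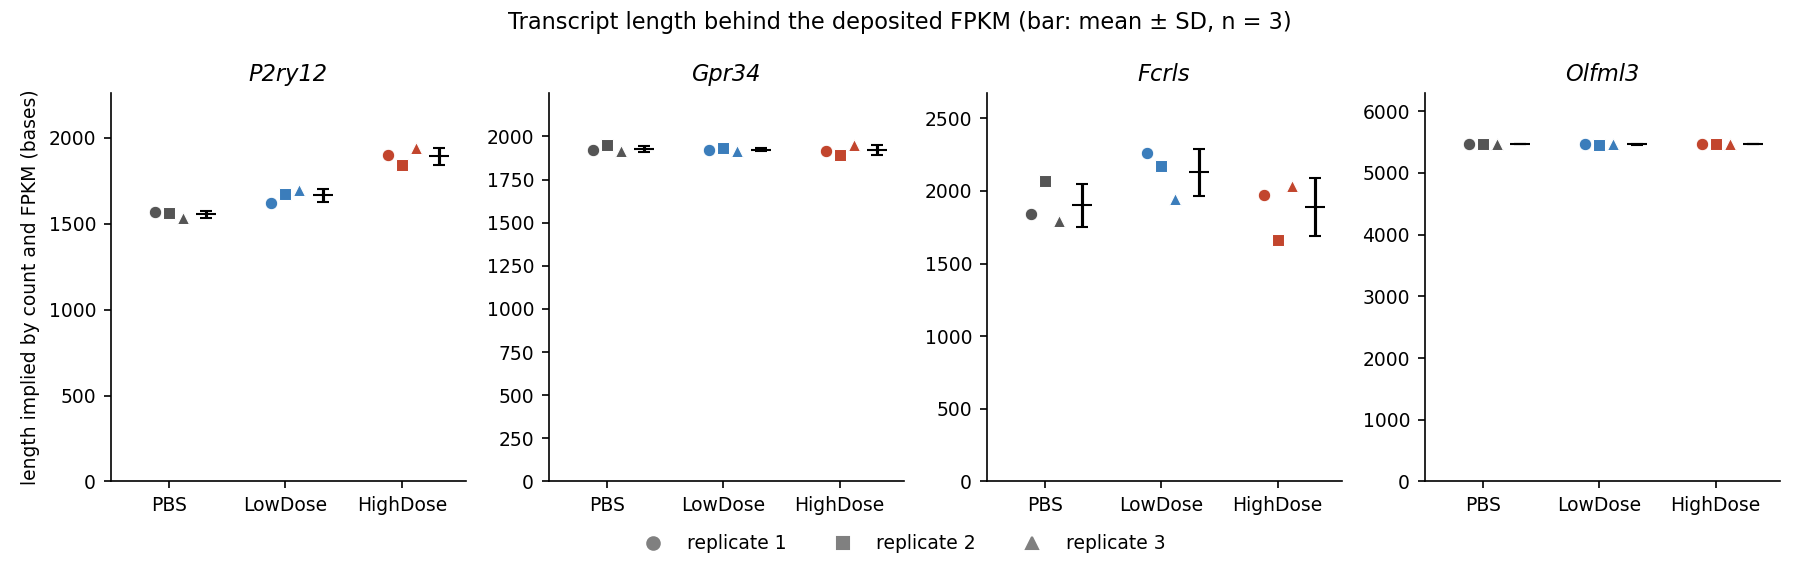
Transcript length implied by the deposited count, the deposited FPKM and the library total (vertical axes, bases) for the 4 genes in each library (points) with the group mean ± SD (n = 3). P2ry12 lies at 1533 to 1571 bases in PBS and 1839 to 1939 bases in HighDose, while Olfml3 stays at 5461 to 5467 bases.

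Ratios of counts inside a library do not depend on any library size. The count ratio of Olfml3 to P2ry12 was 0.521, 0.666 and 0.598 in PBS, 0.538, 0.654 and 0.770 in LowDose, and 2.19, 2.91 and 3.96 in HighDose. On the log2 scale it went from -0.76 ± 0.18 in PBS to 1.55 ± 0.43 in HighDose (SD, n = 3 each), a difference of 2.31 (2.59 from FPKM), and these groups did not overlap. The PBS and LowDose libraries did overlap. The ratio of Olfml3 to Gpr34 differed by 2.41 and that of Olfml3 to Fcrls by 2.76 between HighDose and PBS on the same scale.

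The 3 lower genes differed less among themselves. The log2 ratio of P2ry12 to Gpr34 was 1.66 ± 0.16 in PBS, 1.47 ± 0.12 in LowDose and 1.77 ± 0.26 in HighDose (SD, n = 3 each). The PBS libraries overlapped both other groups, and all LowDose libraries lay just below the HighDose ones. P2ry12 to Fcrls was 0.20 ± 0.10, 0.10 ± 0.46 and 0.66 ± 0.53 in the same order, and HighDose replicate 2 stood out at 1.27 against 0.44 and 0.26 in the other HighDose libraries. Gpr34 to Fcrls was -1.46 ± 0.06 in PBS and -1.11 ± 0.28 in HighDose, and these libraries did not overlap.

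Aif1, which encodes the marker IBA1 of microglia and macrophages, rose from 2.78 ± 0.621 CPM to 13.4 ± 2.34 CPM at the high dose (SD, n = 3 each), with a log2 change of 2.27 ± 0.28 (SE, adjusted p = 1.24e-09, edgeR quasi-likelihood test). Under TMM the log2 change of Aif1 was 0.57. Set against Aif1 inside each library, P2ry12 was 9.57-fold lower in HighDose than in PBS, Gpr34 10.3-fold, Fcrls 13.1-fold and Olfml3 1.93-fold, from group means of log2 count ratios. The size of these folds depends on the reference gene. Tested genes of the core microglia and macrophage list, which holds Aif1, had log2 changes of 1.05 to 4.19 (median 1.90). Against Tmem119, a membrane protein used to tell microglia from other macrophages, P2ry12 was 4.11-fold lower, Gpr34 4.42-fold and Fcrls 5.64-fold. Olfml3 to Tmem119 was 1.12, 1.07 and 0.954 in PBS and 1.17, 1.17 and 1.46 in HighDose, 1.20-fold higher as a mean of log2 ratios, and these libraries did not overlap. In bulk tissue, fewer cells of a type and less RNA per cell cannot be told apart.

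**Figure D3:**
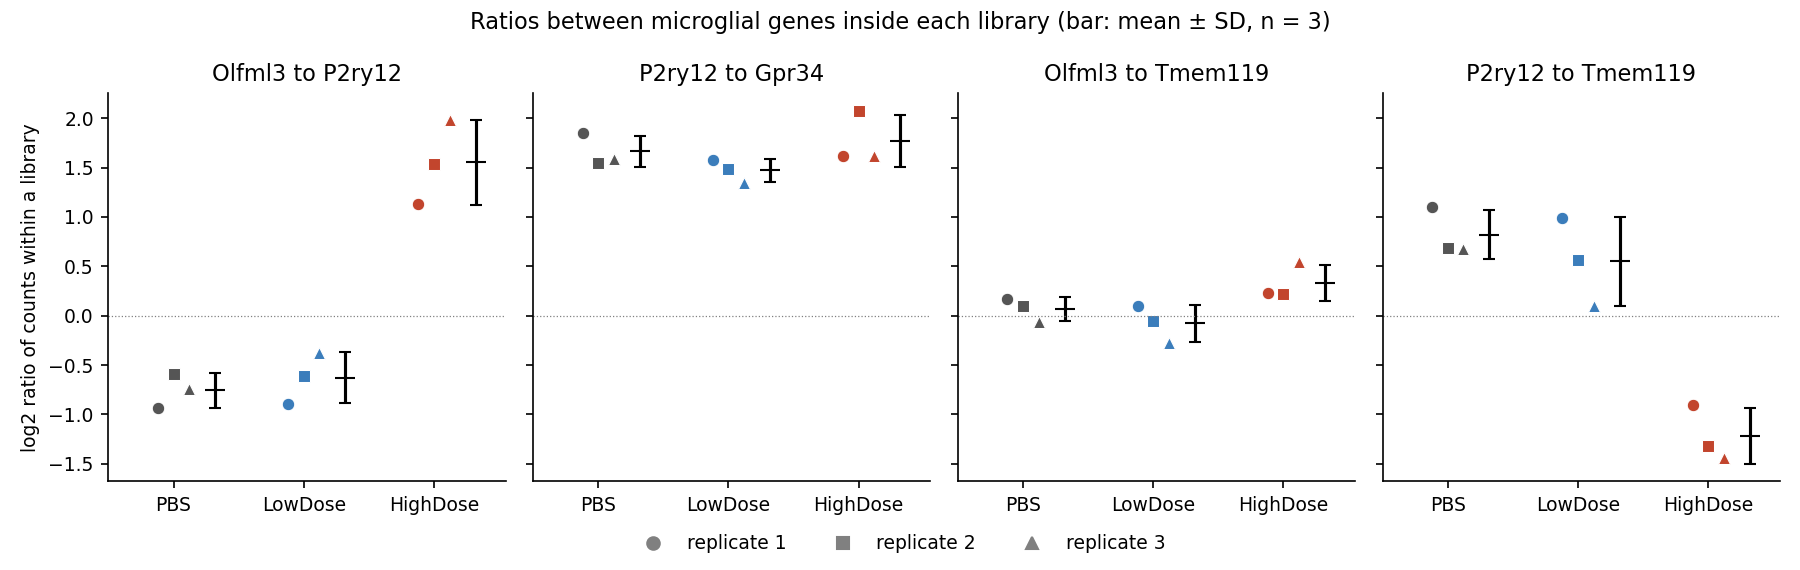
Log2 ratios of counts between pairs of microglial genes inside each library (vertical axis), by group, with points shaped by replicate number and the group mean ± SD (n = 3). Olfml3 to P2ry12 goes from -0.76 in PBS to 1.55 in HighDose, while P2ry12 to Gpr34 stays between 1.35 and 2.07 in all libraries.

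The homeostatic list, drawn up with earlier results known, had 32 genes, 11 of them in the table: the 4 members and 7 others, all 7 tested. In HighDose against PBS 6 of the 7 rose and 1 fell, beside 86.3% and 10.7% of all tested genes, so the shares were near the background, and their median log2 change of 1.03 lay below the 1.90 of all tested genes. Tmem119 rose from 21.8 ± 3.77 to 45.1 ± 4.13 CPM (SD, n = 3 each), and its log2 change was 1.05 ± 0.22 (SE, adjusted p = 2.50e-05, edgeR). Nrros, which holds latent TGF-beta on myeloid cells, rose by 1.39 ± 0.25 on the log2 scale, and Selplg, the ligand of P-selectin, by 0.89 ± 0.21. The adenosine receptor Adora3 (1.43 ± 0.36), the UDP receptor P2ry6 (1.0 ± 0.31) and the ATP-gated channel P2rx4 (1.03 ± 0.22) rose as well. Ltc4s, the enzyme that makes leukotriene C4, fell from 1.74 ± 0.475 to 0.701 ± 0.0790 CPM, a log2 change of -1.30 ± 0.44 (SE, adjusted p = 0.00506, edgeR), and so stood with P2ry12, Gpr34 and Fcrls. Scaled within the listed genes, which moves the median of all tested genes to 0.19 (TMM), 0.22 (DESeq2 size factors) and 0.22 (sum of listed counts), 0 of the 7 rose and 5 fell in each of the 3 scalings. There Tmem119 was at -0.63 and Ltc4s at -2.99 under TMM, and Adora3 and Nrros were not called.

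**Figure D4:**
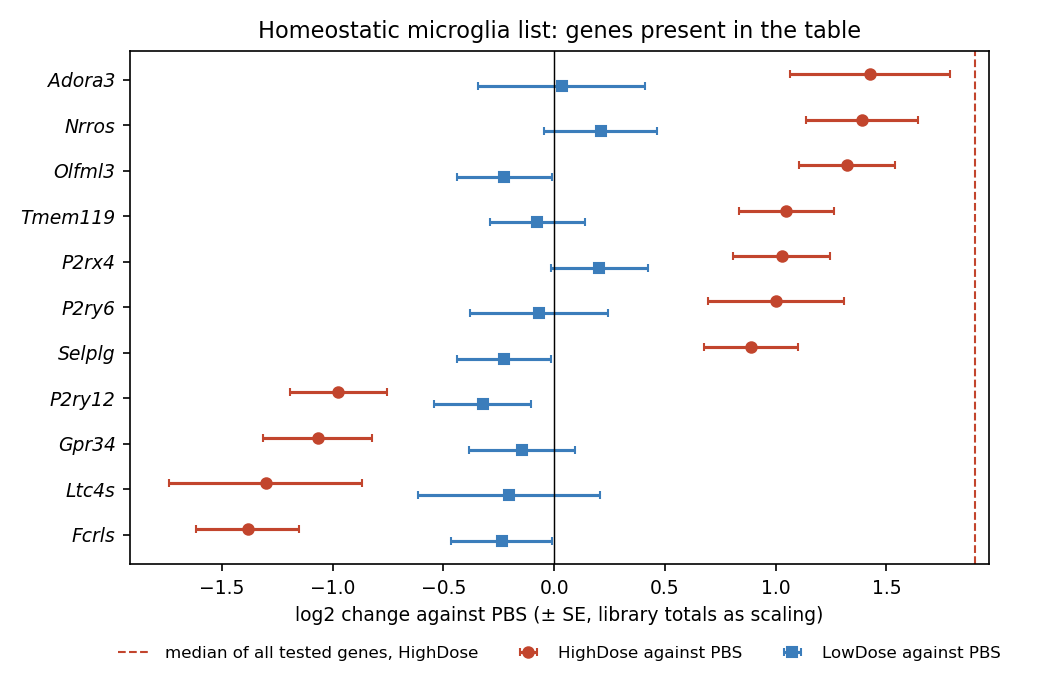
Log2 change against PBS (horizontal axis, ± SE) of the 11 homeostatic list genes in the table, in HighDose (circles) and LowDose (squares), with library totals as scaling, and the median of all tested genes in HighDose (dashed line, 1.90). Fcrls, Ltc4s, Gpr34 and P2ry12 lie at -1.38 to -0.97 in HighDose and the 7 others at 0.89 to 1.43. Under TMM those 7 lie below 0 as well.

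In LowDose against PBS 0 of the 7 other list genes passed the edgeR test, beside 2.59% of all tested genes called in either direction. At an unadjusted p under 0.05 the count was 0 too, and DESeq2 and limma-voom called 0. Their log2 changes lay between -0.23 (Selplg) and 0.21 (Nrros), and the 4 members lay between -0.32 and -0.15. Over all genes the test called 41 genes at low dose, or 62 with the replicate number as a block. The call of 0 of 7 was the same with the block.

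Other nucleotide and P2Y-like receptors were higher with library totals as the scaling, and in part lower under TMM. Their list is wider than the relatives of P2ry12 and Gpr34, since it also holds the ATP-gated channel P2rx4. Of 18 genes on the list of nucleotide and P2Y-like receptors, 7 besides the members were tested, and 7 of 7 rose in HighDose against PBS (86.3% of all tested genes did). Under TMM 2 of them rose, P2ry10 and Gpr171, and 2 fell, P2ry6 and P2rx4. Gpr171 and P2ry14 lie on chromosome 3 next to P2ry12, at 59096448 to 59101821 and 59113855 to 59153618, on the same strand and inside the same host gene Med12l. P2ry14, a receptor for UDP-sugars, rose from 2.41 ± 0.637 to 5.52 ± 1.52 CPM (SD, n = 3 each; log2 1.19 ± 0.33, SE, adjusted p = 0.000964, edgeR), but was at -0.53 with adjusted p = 0.0859 under TMM. Gpr171, a receptor found on T cells, had 0, 1 and 0 counts in PBS and 94, 102 and 176 in HighDose. P2ry13 lies nearest to P2ry12 in the cluster and was not analysed here. P2ry2, a receptor for ATP and UTP, rose too, by 1.95 ± 0.50 on the log2 scale (SE), and was at 0.25 under TMM without a call.

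Fcrls and Olfml3 had few relatives in the table. Of 6 Fc receptor-like genes Fcrl5 and Fcrla were listed beside Fcrls, and neither passed the filter on low counts, with a summed level of 0 to 0.0545 CPM in PBS and 0.744 to 1.65 CPM in HighDose. Fcrl5 had 0 counts in all PBS and LowDose libraries. Of 10 olfactomedin genes only Olfml3 was in the table.

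Tested genes of the microglial transcription factor, TGF-beta pathway and CSF1 lists were higher with library totals as the scaling. Not every gene of these lists regulates the resting state. Of 16 microglial transcription factors 4 were tested and 4 of 4 rose: Spi1, which encodes PU.1, by 2.12 ± 0.27, Irf8 by 2.597 ± 0.23, Runx1 by 2.16 ± 0.34 and Irf5 by 2.34 ± 0.26 on the log2 scale (SE). Under TMM 3 of the 4 still rose, and Runx1 (0.45, adjusted p = 0.124) lost its call. Of 21 TGF-beta pathway genes 6 were tested and 6 rose, among them Tgfb1, the ligand, by 1.12 ± 0.24, and its receptor Tgfbr2 by 0.96 ± 0.21. Ltbp1 and Ltbp2, proteins that bind latent TGF-beta in the matrix, rose by 1.33 ± 0.23 and 2.52 ± 0.51. Under TMM only Tgfbi, a matrix protein induced by the pathway, rose, while Tgfb1, Tgfbr2 and Ltbp1 fell. Csf1, a ligand of the receptor that microglia need to survive, rose from 20.8 ± 1.78 to 78.8 ± 17.7 CPM (SD, n = 3 each), and was at 0.21 with adjusted p = 0.142 under TMM. Csf2ra and Csf2rb, chains of the GM-CSF receptor, rose as well, by 1.10 ± 0.29 and 3.71 ± 0.31, and Csf2ra fell under TMM. In LowDose the log2 changes lay between -0.17 and 0.06 for the transcription factors, -0.16 and 0.65 for the TGF-beta genes, and -0.14 and 0.15 for the CSF1 list. The counts in HighDose stand beside 86.3% of all tested genes called higher.

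Markers of other microglial states and of other myeloid cells also differed between the groups. Genes of these lists that are not in the table could not be counted, and the table holds only genes that differed at least 2-fold. Of 25 core microglia and macrophage genes 21 were tested, and all 21 rose in HighDose, where 86.3% of all tested genes did. Their summed level was 323 to 400 CPM in PBS, 319 to 373 CPM in LowDose and 999 to 1348 CPM in HighDose. The list was led per length by Ctss, a lysosomal protease, and C1qa, a subunit of complement C1q. Of 31 activated microglia genes 21 were tested, and these 21 rose (96.5 to 120 CPM summed in PBS, 653 to 1003 CPM in HighDose). They were led per length by Lgals3bp and Ctsz. Of 14 monocyte and infiltrating macrophage genes 10 were tested and 10 of 10 rose, from 11.6 to 16.6 CPM summed in PBS to 186 to 320 CPM in HighDose. They were led per length by Ly6c2 and Plac8, and 0 of them had 0 counts throughout PBS. Of 12 border macrophage genes 3 were tested and 2 of 3 rose, Siglec1 and Ms4a7, while Cd163 fell. Under TMM the calls were 9 higher and 3 lower for the core list, 16 and 2 for the activated list, and 7 and 1 for the monocyte list, beside 600 and 464 of the 1583 tested genes. T cell markers summed to 1.31 to 2.12 CPM in PBS, where Cd3d had 0 counts, and to 21.7 to 45.2 CPM in HighDose. Dendritic cell markers summed to 3.92 to 4.50 CPM in PBS, where Xcr1 had 0 counts, and to 15.4 to 29.2 CPM in HighDose. How far these cells contributed to the levels of the members was not tested.

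Across the 9 libraries, 1260 named genes with a mean of at least 1 CPM were ranked by the Pearson correlation of log2(CPM + 0.5) with a member. The libraries fall into groups, and the genes are listed for differing between them, so r is a description. The 5 genes most like P2ry12 were Fam184b (r = 0.976), Id4 (0.970), Gng7 (0.962), Adcy5 (0.961) and Necab2 (0.959). Gng7 and Adcy5 encode a G protein subunit and an adenylyl cyclase that are abundant in striatal neurons, and Id4 is an inhibitor of transcription factors found in astrocytes. The 5 most like Olfml3 were Lat2 (0.996), Myo1f (0.992), Bin2 (0.992), Lgals3 (0.991) and Pla1a (0.991). Lat2 and Myo1f are an adaptor and a myosin of immune cells, and Lgals3 encodes galectin-3 of activated macrophages. Lat2 had counts that were not whole in 9 libraries, so its reads could be shared with another gene. With a pseudocount of 2 CPM the 5 genes were the same for P2ry12, and 3 of the 5 for Olfml3.

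Within each group, but not across all 9 libraries, the order by P2ry12 was also the order by striatal markers. This comparison of orders was not a planned result, and each order is of 3 libraries only. The summed level of 10 striatal neuron markers was 1034, 1255 and 841 CPM in PBS replicates 1 to 3, 694, 451 and 295 CPM in LowDose, and 333, 313 and 284 CPM in HighDose, with the same order as P2ry12 inside each group. LowDose replicate 1 lay above PBS replicate 3 for P2ry12 and below it for these markers. All 10 striatal markers fell in HighDose, where 10.7% of tested genes were called lower, and 8 of 10 in LowDose, where 2.15% were (edgeR), and no marker was at 0 throughout a group. Per length the list was led by Ppp1r1b and Penk, a signalling protein and an opioid precursor of striatal neurons. Scaled within the listed genes, 10 of 10 fell in HighDose and 0 of 10 were called in LowDose, where their median log2 change was -1.12 under TMM and -1.18 with library totals. Gpr34 had the order of these markers within LowDose, but not within PBS or HighDose. Fcrls had the reverse order within LowDose (24.5, 29.5 and 30.7 CPM), and Olfml3 within HighDose. The tissue label, "brain ctx", names no striatum. The part of the dissected region in the level of P2ry12 was not tested.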

How the data were processed

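The members and gene lists were chosen with earlier results of these data known. RNA-seq counts of 9 mouse libraries, 3 each of PBS, LowDose and HighDose by sample title, were used. The authors deposited 1 table of estimated counts for 1710 genes, on build mm10 per the submitters' processing notes, which name edgeR and DESeq2 without a role. FPKM per gene was deposited by the authors beside them, per the file headers. No source used here names the aligner, counter or annotation. Group means of FPKM differed 2-fold or more for every listed gene (smallest log2 value 1.0008), so column sums are no depths. Symbols were taken by Ensembl ID (1704 of 1710 matched).

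Library totals were recovered as the median of count over FPKM and transcript length, using 23 to 68 genes for which GENCODE M21 has 1 transcript (minimum length 600 bases, minimum FPKM 5, minimum count 100). In units of 1e6, totals were 18.3, 20.7 and 21.7 in PBS, 23.7, 22.2 and 18.7 in LowDose, and 22.9, 20.9 and 23.1 in HighDose. Counts were rounded, filtered with filterByExpr (minimum count 10) and tested by edgeR 4.0.16 (quasi-likelihood, R 4.3.3) in 1 model of the 3 groups, with Benjamini-Hochberg adjustment over 1583 genes and a threshold of 0.05. Dividing a log2 change by the root of its F statistic gave its SE. The pipeline was tested on simulated data in which a minority of genes differed, as many up as down. That setting was unlike these data, where 97% of tested genes were called in HighDose against PBS.

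Alternative scalings were the sum of listed counts, TMM and size factors of DESeq2 1.42.0. Other alternatives were no filter, at least 1 CPM in 3 libraries, the DESeq2 Wald test, limma-voom (limma 3.58.1), only the groups compared, a replicate block and leaving out each library. Deviations from group means of same-numbered libraries correlated at 0.25, 0.17 and 0.14 between PBS and LowDose, over 0.1 in every pair. Values were 0.07, -0.01 and 0.15 between PBS and HighDose and 0.18, 0.01 and 0.08 between LowDose and HighDose. The numbers were therefore taken as pairs for LowDose against PBS only. This pairing is an assumption: no label names it, and the unlike-numbered LowDose replicate 2 and HighDose replicate 3 reached 0.13.

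Named were the 4 members, every tested gene of 7 lists (homeostatic, transcription factors, TGF-beta, CSF1, P2Y-like, Fc receptor-like, olfactomedin), the 2 highest FPKM genes of other lists, the 5 genes most like P2ry12 and Olfml3, and Aif1. Cd163 was named after its values were seen. Other lists, with their 2 leading genes per length, were counted alike in HighDose against PBS, beside 86.3% of tested genes called higher. Only tested genes were counted: the neutrophil list held 8 genes, the fibroblast and meninges list 10 and the astrocyte list 8. With library totals 18 of 18 interferon-stimulated genes (Ifit3, Isg15), 11 of 11 T cell (Lck, Trac), 4 of 4 dendritic cell (Ccr7, Wdfy4), 1 of 1 neutrophil (Csf3r), 4 of 4 fibroblast and meninges (Dcn, Aldh1a2), 2 of 2 astrocyte (Gfap, Vim) and 4 of 6 cycling cell genes (Cdk1, Birc5) were called higher. Under TMM the counts were 18, 11, 2, 0, 0, 0 and 0 higher, with 1 fibroblast and 2 cycling cell genes lower. The mural and endothelial list had 0 tested genes. Promoter windows were from RefSeq. Tables and figures used Python 3.11.15.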

Additional observations from a re-analysis of the deposited data

How the results depend on the processing

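TMM and the size factors of DESeq2 take most listed genes as unchanged, and the listed sum takes their summed counts as equal in every library. With library totals the listed share was 1.54 to 1.61% in PBS, 1.34 to 1.38% in LowDose and 3.90 to 6.04% in HighDose, unlike the premise of the listed sum. On the same scale 97% of tested genes were called in HighDose against PBS, with a median log2 change of 1.90, unlike the premise of TMM and DESeq2. Both statements take library totals as given. All 3 scalings lowered every HighDose value. With TMM, size factors of DESeq2, and the listed sum in turn, the log2 change in HighDose against PBS was -2.62, -2.59 and -2.59 for P2ry12, -2.71, -2.69 and -2.68 for Gpr34, -3.03, -3.002 and -2.99 for Fcrls, and, reversed, -0.37, -0.35 and -0.34 for Olfml3. In HighDose against LowDose it was -2.35, -2.31 and -2.47 for P2ry12, -2.62, -2.58 and -2.74 for Gpr34, -2.84, -2.79 and -2.97 for Fcrls, and, reversed, -0.20, -0.16 and -0.33 for Olfml3. In LowDose against PBS the listed sum gave 0.064 for Gpr34, reversed, and -0.013 for Olfml3. All called genes went from 1366 higher and 169 lower to 600 and 464 (TMM), 605 and 455, and 607 and 454 in HighDose against PBS. In HighDose against LowDose they went from 1394 and 112 to 565 and 461, 576 and 445, and 524 and 524.

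In LowDose against PBS 41 genes were called, and 6 under TMM, 6 under DESeq2 size factors, 11 under the listed sum and 62 with the replicate block. Leaving out a library gave 26 (without LowDose replicate 2) to 79 (without LowDose replicate 1). The block changed the call of 0 of the 7 homeostatic list genes in either comparison. Leaving out each library in turn kept the direction of all 4 members, with log2 changes in HighDose against PBS of -1.08 to -0.86 for P2ry12, -1.27 to -0.94 for Gpr34, -1.60 to -1.15 for Fcrls and 1.22 to 1.48 for Olfml3, and 7 of 7 list genes called each time. The difference in the log2 ratio of Olfml3 to P2ry12, 2.31, uses no library size and ranged from 2.09 to 2.52 without 1 library. Filters, the other tests and fitting only the groups compared moved no member by more than its spread between replicates. Gpr34, with 99 counts in HighDose replicate 2, had the least depth.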
